A study of Mus musculus with 8 samples.

Results

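The 9 genes described here, Meis1, Mecom, Hlf, Prdm16, Gata2, Runx1, Tal1, Lmo2 and Gfi1, encode transcription regulators of hematopoietic stem cells (HSC). They were taken by name, as every probe set that the platform annotation gives to 1 of the 9 gene symbols, which found 23 of 45101 probe sets and 9 of 18193 genes. Their levels were measured in mouse cells with and without Zfx, an X-linked zinc finger transcription factor that the series title places in the control of self-renewal in both cell types. The question followed is whether and how the signal of these regulators differed once Zfx was deleted in HSC, and whether any of them moved in embryonic stem cells (ESC), which are not blood cells.

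The series holds 8 arrays (Affymetrix Mouse Genome 430 2.0), 2 in each of 4 groups. The ESC Zfx-flox group consists of control clones that carry the floxed, undeleted Zfx allele, and the ESC Zfx-null group of clones that lack Zfx. Both were grown without feeder cells on gelatin, with 15% serum replacement and leukemia inhibitory factor (LIF). HSC here means bone marrow cells sorted as Lin-, Sca-1+ and c-Kit+, a gate that takes in multipotent progenitors besides stem cells. The HSC Zfx-cko mice were Mx1-Cre+ Zfxflox/y, so an interferon-inducible promoter drove their Cre, and the HSC Zfx-flox mice were Zfxflox/y littermates without Cre. Marrow was pooled over 4 to 6 mice and taken 4 days after the end of the pI·C course, and 50000 cells were sorted. The control mice differed from the deleted ones by the Cre transgene as well as by the deletion. The ages of the mice are not stated. HSC RNA had 2 rounds of amplification and ESC RNA had 1, so cell type and amplification cannot be told apart, and levels are compared between ESC and HSC below as a description only. The design text speaks of samples hybridized in duplicate, so both arrays of a group may share an RNA, and the p-values then measure only the spread between arrays.

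These regulators work as a network. Tal1 pairs with E proteins such as Tcf3 on DNA and is held together with Gata2 through the bridging protein Lmo2 and its partner Ldb1. Runx1 binds DNA together with Cbfb and is needed for the first stem cells to arise from hemogenic endothelium, and Gata2 acts in the same step. Meis1 is a homeodomain cofactor of Pbx and Hox proteins. Hlf, Mecom and Prdm16 are regarded as markers and keepers of the long-term, slowly dividing stem cells, and Gfi1 is a repressor that restrains their proliferation and, with Gfi1b, shares control of lineage choice.

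Sequences around the transcription start sites were available from RefSeq (GRCm38.p6) for 8 of the 9 genes, with 13 promoters of 300 bases each, running from 250 bases before to 50 bases after the start. Those of Meis1, Hlf and Runx1, which rose in HSC, and of Tal1, the gene that fell, are shown, so that the elements near each start can be read beside the measured changes. Capitals mark matches to 6-letter motifs, searched on both strands. The core of the motif known for Zfx was searched as AGGCCT. For the family of Gata2 the letters were AGATAA, and for the family of Runx1 they were TGTGGT. The Meis1 motif was searched as TGACAG. Tal1 and its E protein partners bind E-boxes, searched here as CAGCTG and, separately, as CAGATG. Factors of the ETS family, such as Erg and Fli1, were searched with CCGGAA.
Meis1, chr11:19018920-19019219, minus strand: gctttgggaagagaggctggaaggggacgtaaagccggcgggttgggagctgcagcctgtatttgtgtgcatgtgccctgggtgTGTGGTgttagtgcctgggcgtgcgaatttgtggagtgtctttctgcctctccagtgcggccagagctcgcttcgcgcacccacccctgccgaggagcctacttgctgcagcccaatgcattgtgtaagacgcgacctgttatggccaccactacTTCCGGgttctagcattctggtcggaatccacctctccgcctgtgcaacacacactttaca
Hlf, chr11:90390868-90391167, minus strand: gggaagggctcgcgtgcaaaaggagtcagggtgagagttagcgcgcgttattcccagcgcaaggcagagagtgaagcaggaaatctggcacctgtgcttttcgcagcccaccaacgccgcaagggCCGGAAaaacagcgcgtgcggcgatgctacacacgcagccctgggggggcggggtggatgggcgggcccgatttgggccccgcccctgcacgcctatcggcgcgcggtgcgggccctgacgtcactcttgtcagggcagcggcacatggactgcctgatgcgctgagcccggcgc
Runx1, chr16:92697280-92697579, minus strand: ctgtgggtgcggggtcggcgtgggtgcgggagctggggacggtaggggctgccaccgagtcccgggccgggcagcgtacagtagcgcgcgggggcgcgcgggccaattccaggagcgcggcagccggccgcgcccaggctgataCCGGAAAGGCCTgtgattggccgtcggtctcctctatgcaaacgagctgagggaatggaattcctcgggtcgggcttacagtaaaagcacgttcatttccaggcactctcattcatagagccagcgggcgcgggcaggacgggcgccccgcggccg
Runx1, chr16:92826025-92826324, minus strand: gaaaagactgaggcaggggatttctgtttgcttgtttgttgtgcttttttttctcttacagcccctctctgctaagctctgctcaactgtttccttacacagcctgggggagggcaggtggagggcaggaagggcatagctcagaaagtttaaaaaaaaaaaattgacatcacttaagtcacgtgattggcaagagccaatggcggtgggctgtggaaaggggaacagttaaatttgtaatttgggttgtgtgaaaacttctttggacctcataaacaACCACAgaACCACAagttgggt
Tal1, chr4:115056176-115056475, plus strand: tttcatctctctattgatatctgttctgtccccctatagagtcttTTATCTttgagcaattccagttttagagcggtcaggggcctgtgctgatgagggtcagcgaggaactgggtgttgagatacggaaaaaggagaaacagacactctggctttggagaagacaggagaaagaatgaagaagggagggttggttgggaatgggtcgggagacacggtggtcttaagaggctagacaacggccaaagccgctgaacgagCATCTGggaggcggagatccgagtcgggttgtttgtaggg
Tal1, chr4:115057561-115057860, plus strand: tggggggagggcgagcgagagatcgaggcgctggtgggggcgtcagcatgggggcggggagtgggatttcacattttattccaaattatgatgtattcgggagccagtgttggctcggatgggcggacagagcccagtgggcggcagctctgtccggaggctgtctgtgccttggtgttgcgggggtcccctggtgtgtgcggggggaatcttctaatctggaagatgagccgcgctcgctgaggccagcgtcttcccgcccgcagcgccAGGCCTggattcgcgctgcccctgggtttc

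The Meis1 window holds a RUNX motif and an ETS motif, the latter on the opposite strand. In Hlf the marked letters are an ETS motif. The GC-rich Runx1 window has an ETS motif that runs straight into a Zfx core motif, while the other Runx1 window has 2 RUNX motifs just after the start, both on the opposite strand. In Tal1, the window upstream in the gene has a Gata motif and a CAGATG E-box, both on the opposite strand, and the other has a Zfx core motif. Over all 13 promoters, 4 hold the Zfx core, against 10.3% of the 32851 promoters in the table, and those not shown belong to Prdm16 and Gfi1. The ETS motif stands in 4 as well, against 14.9%. The RUNX motif was found in 2 (16.8% of all) and the CAGATG E-box in 2 (17.2%). The motifs of the Gata2 family (11.2%), of Meis1 (19.2%) and the other E-box (16.3%) were found in 1 each. A match describes letters and is no evidence of binding. The median GC content of the members' promoters was 58.3% with 19 CpG dinucleotides, against 52.7% and 7 over the table.

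Each array had been scaled by the authors to the same trimmed mean signal of 250, with medians between 38.4 and 66.5. Changes below are log2 differences on the scale log2(value + 14.2), given with their standard error (SE), and were tested with limma in 1 fit of all arrays, with Benjamini-Hochberg adjustment over all 27022 probe sets tested per cell type and a threshold of 0.05. As a check of the labels, a probe set shared by Zfx and its pseudogene Zfa-ps (1422249_s_at) had signals of 285 and 298 in ESC Zfx-flox and of 1.32 and 0.878 in ESC Zfx-null. That probe set read 7.22 and 0.971 in HSC Zfx-flox, close to nothing before deletion, so it checks nothing there. Of the other probe sets annotated to Zfx, 5 rose in ESC Zfx-null: 1428046_a_at (1.65), 1449512_a_at (1.61), 1419565_a_at (1.54), 1428047_s_at (1.33) and 1425972_a_at (0.79). In HSC 1425972_a_at rose too, from 696 and 752 in Zfx-flox to 1192 and 1209 in Zfx-cko (limma adjusted p = 7.36e-04). 1419565_a_at was lower there, with 109 and 162, then 97.4 and 84.7, and did not pass the test (-0.49 ± 0.21, limma adjusted p = 0.0958). No Zfx probe set thus checks the HSC labels. The position of these probe sets relative to the deleted part is not known here. The Gapdh probe sets from the 5′ and 3′ ends of the transcript, a measure of how far amplification reached, had a log2 ratio of 5′ over 3′ of 0.38 to 0.44 in ESC. In HSC it was -4.18 and -4.25 in the Zfx-flox arrays and -4.68 and -4.39 in the Zfx-cko arrays. The part of RNA or amplification quality in the changes below was not tested.

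In HSC, 19 of the 23 probe sets were bright enough to be tested, and they cover all 9 genes. After deletion 11 of them rose, from 6 genes (Meis1, Mecom, Hlf, Gata2, Runx1 and Gfi1), beside a background of 21.7% of all tested probe sets that were higher. The 1 that fell belongs to Tal1, beside a background of 16% lower. The other 7 did not pass the test, and the 4 not tested belong to Mecom and Prdm16. The median log2 change over the 19 was 1.10, against 0.06 over all probe sets tested. Of all calls in HSC 57.5% were higher, and 47.4% when the arrays were centred on their medians; the 11 members rose under that scaling too. RNA came from bulk populations, so fewer cells of a type and less RNA per cell cannot be told apart.

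Among these regulators, Meis1 had the largest change of a single probe set in HSC. Its probe set 1443260_at read 579 and 611 in the Zfx-flox arrays and 3181 and 3305 in the Zfx-cko arrays. The groups are far apart, and the change of 2.42 ± 0.10 (SE, n = 2 a group; limma adjusted p = 1.02e-06), a 5.35-fold difference on that scale, ranked 45 from the highest of all tested probe sets. The other Meis1 probe sets rose as well. 1450992_a_at went from 1181 and 1086 to 3414 and 3901, a change of 1.68 ± 0.19 (limma adjusted p = 1.41e-04), and the dim 1459423_at from 93.7 and 90.3 to 209 and 217, a change of 1.10 ± 0.24 (limma adjusted p = 0.00576). All 3 thus agree in direction and differ in size.

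Hlf, a PAR bZIP factor of long-term stem cells, was read by 2 probe sets made from the same source sequence. 1434735_at had 513 and 520 with Zfx and 1571 and 1467 without it, a change of 1.53 ± 0.15 (limma adjusted p = 6.46e-05). For 1434736_at the arrays had 156 and 170, then 708 and 720, a change of 2.04 ± 0.17 (limma adjusted p = 2.40e-05). Within each group the duplicates lay close together, and no array of one group reached the other.

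Mecom, whose long form holds a PR domain and is known as Mds1-Evi1, rose by its bright probe set. 1438325_at had signals of 346 and 416 in the controls and of 1291 and 1338 after deletion, a change of 1.75 ± 0.25 (limma adjusted p = 5.03e-04). Its other probe sets were below the filter on dim signal, with 14.6 to 27.3 for 1422295_at and 4.62 to 14.9 for 1423011_at over the HSC arrays, and with all 3 averaged the gene's change was 0.72 (limma adjusted p = 0.0152).

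Prdm16, a PR domain relative of Mecom, did not pass the test. Its brightest probe set, 1440870_at, had 167 and 201 in the controls and 263 and 291 after deletion. The change was 0.56 ± 0.22 (95% interval 0.06 to 1.06, limma adjusted p = 0.0779), and in a fit of HSC alone the adjusted p was 0.00842. Without ESC Zfx-null replicate 1 or 2, which enter the fit only through the shared estimate of the spread, it was 0.0345 or 0.0312, and it rose to 0.306 without HSC Zfx-flox replicate 1. 1429309_at, with 56.5 and 43.1 against 59.9 and 47.3, overlapped between groups (0.09 ± 0.29, limma adjusted p = 0.854), and the other 2 probe sets stayed under 25.

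**Figure D1:**
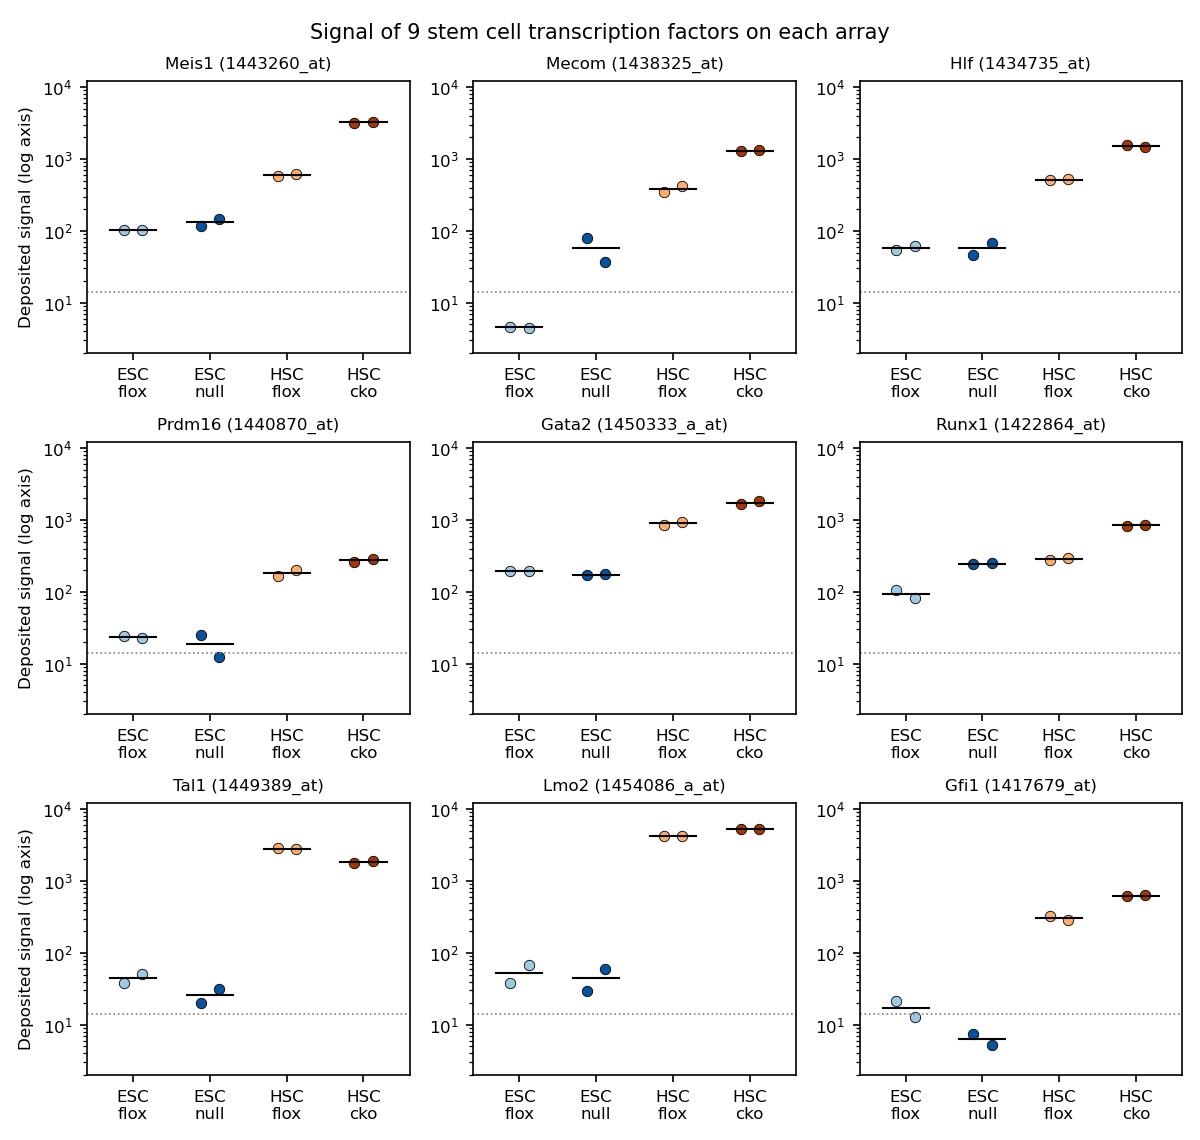
Deposited signal (log axis, arbitrary units) of each of the 9 genes, each by the probe set that is brightest on average (mean log2), on each of the 8 arrays; points are arrays, bars group means of 2 arrays, and the dotted line the pseudocount of 14.2. In the HSC panels the Zfx-cko points of Meis1, Mecom, Hlf, Gata2, Runx1 and Gfi1 lie above the Zfx-flox points. For Tal1, 1774 and 1885 lie below 2890 and 2770. The changes of Prdm16 and Lmo2 did not pass the test.

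Among the factors of the Tal1, Lmo2 and Gata2 complex the genes went different ways. Gata2, a zinc finger factor of stem cells and mast cells, rose by 1450333_a_at, from 859 and 933 to 1672 and 1818 (0.95 ± 0.09, limma adjusted p = 3.96e-05). Its second probe set, 1428816_a_at, had 186 and 271 and then 341 and 294. The change of 0.47 ± 0.28 did not pass the test (limma adjusted p = 0.223), and it was 0.21 without Zfx-flox replicate 1 and 0.72 without Zfx-flox replicate 2. Lmo2, the bridging protein, had the signals 4191 and 4299 in the controls and 5246 and 5235 in the deleted arrays. The change of 0.30 ± 0.25 (95% interval -0.26 to 0.86) did not pass the joint fit (limma adjusted p = 0.384), in which the ESC arrays (37.6 and 68.2, then 29.7 and 59.7) enter the estimate of the spread. The change passed in a fit of HSC alone (limma adjusted p = 8.99e-04).

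Tal1, the basic helix-loop-helix factor of the complex and a regulator of erythroid and megakaryocytic genes, fell. 1449389_at read 2890 and 2770 with Zfx and 1774 and 1885 without it, so both deleted arrays lay below both controls, with a change of -0.63 ± 0.16 (limma adjusted p = 0.0114). The call is close to the threshold. It was lost with no pseudocount (limma adjusted p = 0.0527) and without Zfx-cko replicate 1 (0.0772), Zfx-flox replicate 1 (0.0730) or Zfx-flox replicate 2 (0.0542), where the change stayed between -0.58 and -0.66.

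Gfi1, the zinc finger repressor, rose from 322 and 288 to 622 and 636 by 1417679_at (1.01 ± 0.19, limma adjusted p = 0.00228). Its paralog Gfi1b, which acts in erythroid cells and megakaryocytes, had control signals of 1398 and 1432 and deleted signals of 403 and 438. It fell by 1.72 on the log2 scale (SE 0.20, limma adjusted p = 1.79e-04), so the pair moved in opposite directions. Gata1, the erythroid relative of Gata2, also fell, from 1754 and 1738 to 537 and 562 (-1.64 ± 0.25, limma adjusted p = 7.87e-04).

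Runx1, the DNA-binding subunit of core binding factor, has 6 probe sets on the array, and 3 of them rose in HSC by like amounts. 1422864_at went from 277 and 300 to 818 and 866 (1.50 ± 0.12, limma adjusted p = 2.32e-05). For 1440878_at the signals were 643 and 680, then 1932 and 1944 (1.53 ± 0.12, limma adjusted p = 1.45e-05). The third, 1422865_at, was dim, with 26.0 and 40.01 before and 119 and 113 after deletion (1.48 ± 0.18, limma adjusted p = 1.94e-04). The remaining probe sets did not pass the test and did not share a direction. 1452531_at had 0.67 ± 0.26 (limma adjusted p = 0.0737), 1427650_a_at 1.30 ± 0.54 (limma adjusted p = 0.0869) and 1452530_a_at -0.66 ± 0.25 (limma adjusted p = 0.0607). The signals of 1452530_a_at were 58.7 and 53.6 with Zfx and 40.1 and 22.0 without it. 1452530_a_at was called lower under quantile normalization within cell types (limma adjusted p = 0.0244), under quantile normalization over all arrays (0.0221) and under median centring (0.0230), and without Zfx-cko replicate 1 (0.0294, change -0.96), while without Zfx-cko replicate 2 its change was -0.37 (0.335). 1452531_at was called higher without Zfx-flox replicate 2 (limma adjusted p = 0.0282, change 1.00), and its change was 0.34 without Zfx-flox replicate 1. 1427650_a_at was called higher in a fit of HSC alone (limma adjusted p = 0.0286) and without ESC Zfx-null replicate 1 (0.0282) or 2 (0.0260), but its change ranged from 0.76 without HSC Zfx-flox replicate 1 (0.411) to 1.85 without HSC Zfx-flox replicate 2. With the 6 probe sets of Runx1 averaged, the gene's change was 0.97 in HSC and 0.67 in ESC, both still past the test.

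**Figure D2:**
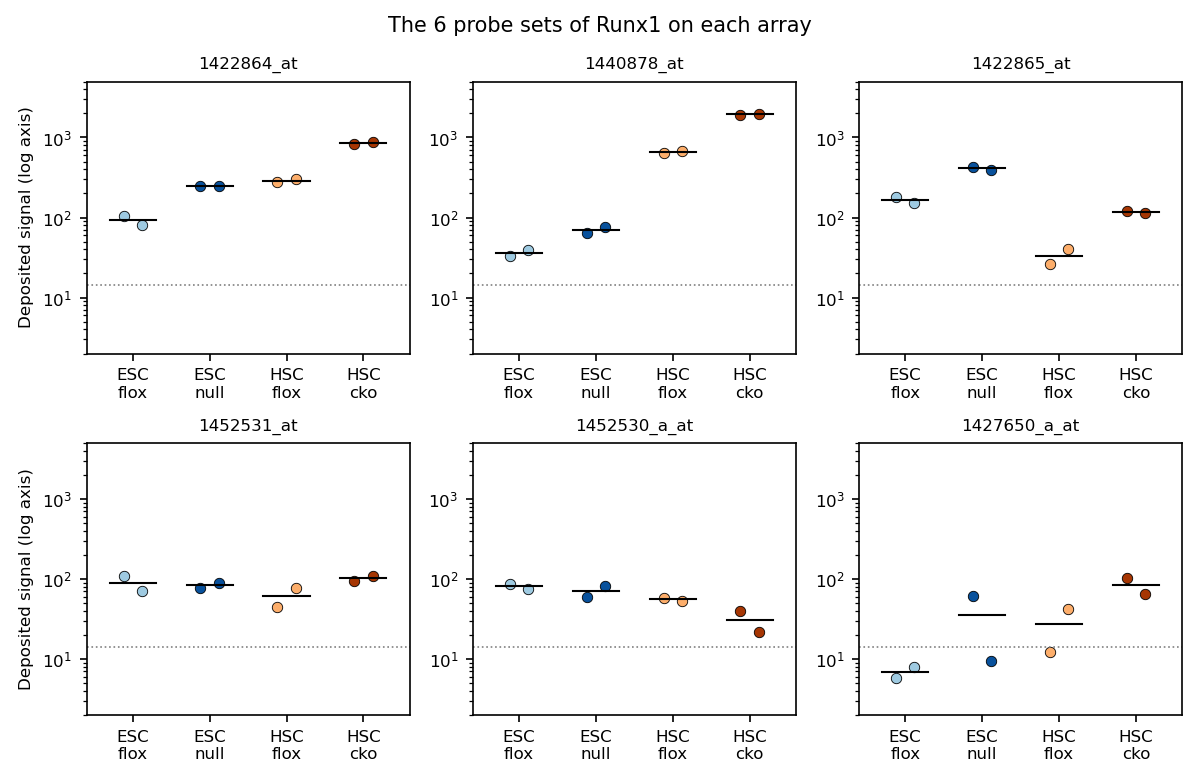
Deposited signal (log axis, arbitrary units) of the 6 Runx1 probe sets on each of the 8 arrays, with bars at group means of 2 arrays and the dotted line at the pseudocount of 14.2. The probe sets 1422864_at, 1440878_at and 1422865_at are higher without Zfx in both cell types, while 1452530_a_at and 1452531_at show no such shift in ESC.

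In ESC only 13 of the 23 probe sets passed the filter on dim signal, from 6 genes, and 4 of them rose in Zfx-null clones (3 of Runx1 and 1 of Meis1), beside a background of 12.2% of all tested probe sets that were higher. By limma 0 fell, also at an unadjusted p under 0.05, beside a background of 12.7% lower. The other 9 did not pass the test, and the 10 below the filter include every probe set of Prdm16, Tal1 and Gfi1. The median change over the 13 was -0.03, against -0.05 over all.

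Runx1 was the member with repeated calls in ESC. 1422864_at had 105 and 81.8 in the control clones and 245 and 249 in the Zfx-null clones (1.29 ± 0.12, limma adjusted p = 1.77e-04). 1422865_at went from 182 and 153 to 428 and 391 (1.22 ± 0.18, limma adjusted p = 0.00136), and 1440878_at from 33.4 and 39.7 to 64.7 and 75.9 (0.74 ± 0.12, limma adjusted p = 0.00206). In each of the 3 the groups are separate. The call of 1440878_at was lost in a fit of ESC alone (limma adjusted p = 0.0568), with the same change. The mean of 1440878_at in Zfx-flox, 36.5, was under the ESC filter signal of about 39.1. It was thus tested only through the Zfx-null arrays, and its rise in ESC is a description only. 1452531_at (109 and 71.2 against 78.3 and 89.7) and 1452530_a_at (87.1 and 75.9 against 60.4 and 81.9) overlapped between the groups, with limma adjusted p of 0.885 and 0.652. 1427650_a_at, with 5.82 and 7.94 against 62.0 and 9.52, was below the filter and not tested.

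The probe sets of Runx1 also rank the cell types differently. 1422864_at and 1440878_at had higher signals in HSC Zfx-flox than in ESC Zfx-flox (means of 289 ± 16.2 against 93.4 ± 16.5, and 662 ± 25.5 against 36.5 ± 4.52; SD, n = 2). 1422865_at had the opposite order, with 33.0 ± 9.92 in HSC and 168 ± 20.7 in ESC, although the annotation gives it the same RefSeq transcript as 1422864_at. These orders were not tested, since amplification differs between the cell types. The 5′ end was under-represented in the HSC arrays by the Gapdh ratio, and its part in this order was not tested.

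Meis1 showed a smaller change in ESC. 1450992_a_at went from 41.2 and 74.3 to 107 and 95.9 (0.72 ± 0.19, limma adjusted p = 0.0226). This call rests on few arrays: the change was 0.38 without Zfx-flox replicate 1 (limma adjusted p = 0.0670), 0.65 without Zfx-null replicate 1 (0.105) and 0.79 without Zfx-null replicate 2 (0.0585), and it was also lost in a fit of ESC alone (0.0940) and with no variance trend (0.0641). 1443260_at had 104 and 104, then 119 and 145, which did not pass the test (0.30 ± 0.10, limma adjusted p = 0.0638), and did under both quantile normalizations (0.0471 and 0.0486) and without Zfx-null replicate 1 (0.0195, change 0.43), while without Zfx-null replicate 2 its change was 0.17 (0.277). 1459423_at overlapped between the groups (-0.13 ± 0.24, limma adjusted p = 0.740).

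Mecom gave an unusual reading in ESC. 1438325_at had 4.67 and 4.42 in Zfx-flox, under the pseudocount, and 79.2 and 36.9 in Zfx-null, where the replicates themselves differ widely. Its mean over the ESC arrays was below the filter, so it was not tested, and with no filter the change was 1.88 ± 0.25 (limma adjusted p = 0.00218). The other Mecom probe set that was tested, 1422295_at, had 37.3 and 34.5 against 49.1 and 43.8 (0.28 ± 0.23, limma adjusted p = 0.434). The remaining tested members did not pass the test: Hlf 1434735_at had -0.03 ± 0.15 (limma adjusted p = 0.907), Gata2 1450333_a_at -0.16 ± 0.08 (0.219), Gata2 1428816_a_at -0.26 ± 0.28 (0.545) and Lmo2 -0.20 ± 0.25 (0.615). Tal1, with 37.8 and 51.3 with Zfx and 19.8 and 31.3 without it, and Gfi1, with 21.7 and 12.7 against 7.45 and 5.27, were near the pseudocount. With no filter Tal1 had a change of -0.57 (limma adjusted p = 0.0476).

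**Figure D3:**
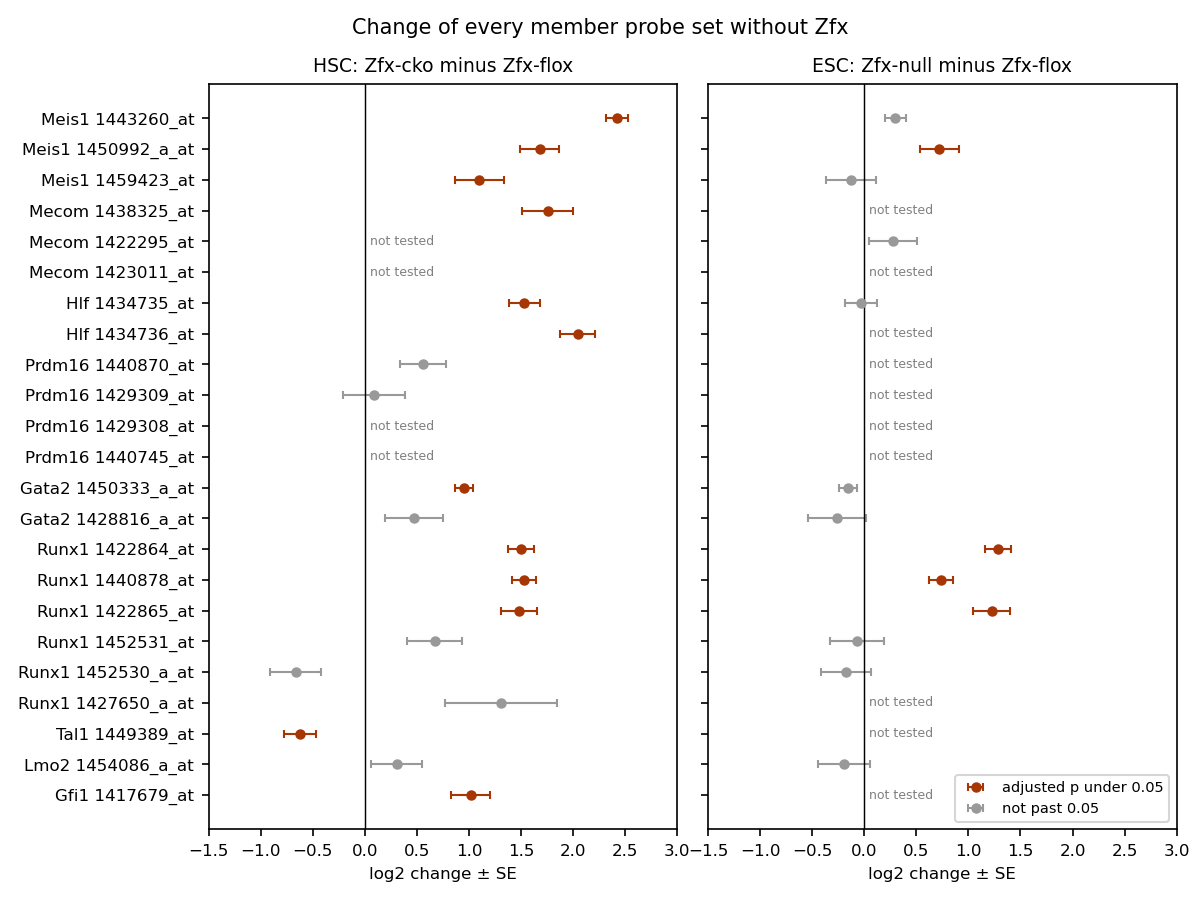
Log2 change after loss of Zfx, with bars of 1 SE, for each tested probe set of the 9 genes, with HSC on the left, ESC on the right and the floxed controls at 0; dark red points passed the test and grey ones did not. In HSC 11 red points lie to the right of 0 and the red Tal1 point at -0.63, while the 4 red points in ESC belong to Runx1 and Meis1.

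Whether the effect differed between the cell types was tested over the 12 probe sets that passed the filter in both. The HSC change was larger than the ESC change for 6 of them, beside a background of 18% with a positive difference, and smaller for 0, also at an unadjusted p under 0.05, beside 14.6% negative. The largest difference was that of Meis1 1443260_at, 2.12 ± 0.15 (limma adjusted p = 2.09e-05). Hlf 1434735_at followed with 1.56 ± 0.21 (6.72e-04), Meis1 1459423_at with 1.23 ± 0.34 (0.0210), Gata2 1450333_a_at with 1.11 ± 0.12 (2.13e-04), Meis1 1450992_a_at with 0.95 ± 0.27 (0.0223) and Runx1 1440878_at with 0.80 ± 0.16 (0.00565). In ESC Zfx-flox, Hlf 1434735_at (mean 57.9), Meis1 1459423_at (57.3) and Meis1 1450992_a_at (57.7) were dim. Runx1 1440878_at (36.5) was under the ESC filter signal of about 39.1 there. The pseudocount understates the change of dim genes, and the part of dim ESC signal in these differences was not tested. For the other Runx1 probe sets that rose in both cell types the difference was 0.21 (95% interval -0.18 to 0.61; limma adjusted p = 0.394) for 1422864_at and 0.25 (-0.31 to 0.82; 0.480) for 1422865_at, so Runx1 gave a call of a difference by 1 probe set and no call by the others. The call of a difference for Meis1 1459423_at was lost without ESC Zfx-flox replicate 2 (limma adjusted p = 0.0537), ESC Zfx-null replicate 1 (0.0644) or any single HSC array (0.0515 to 0.0647). That for Meis1 1450992_a_at was lost without ESC Zfx-null replicate 2 (0.0585), HSC Zfx-cko replicate 2 (0.0844) or HSC Zfx-flox replicate 2 (0.0732), and its size was 0.62 without ESC Zfx-flox replicate 2 and 1.29 without ESC Zfx-flox replicate 1, both past the test.

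The related genes give a setting for these changes, by lists that leave the 9 out and hold 1 probe set a gene. Over all 12533 genes tested in HSC, 2816 (22.5%) rose and 2454 (19.6%) fell, with a median change of 0.03. Of 23 partners and cofactors of the members, 6 rose and 7 fell, with a median of -0.16. Hoxa7, a homeobox gene, rose from 83.1 and 97.3 to 257 and 191 (1.18 ± 0.23, limma adjusted p = 0.00313), and Ctbp2, a corepressor that Mecom and Prdm16 bind, fell from 704 and 758 to 373 and 397 (-0.90 ± 0.08, limma adjusted p = 4.55e-05). Tcf4 (0.67) and Pbx3 (0.53) were among those that rose, while of the brightest others the histone deacetylase Hdac2 (-0.08) and Hoxa9 (0.60, limma adjusted p = 0.0806), a Hox partner of Meis1, did not pass the test.

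Of 10 tested paralogs of the members, Tef, the nearest relative of Hlf on the list, rose by 0.35, and the 2 that fell are Gata1 and Gfi1b. Of 30 other stem and progenitor transcription factors, 19 rose and 2 fell, with a median of 0.65. Hmga2, a chromatin protein of fetal stem cells, went from 527 and 524 to 2072 and 2142 (1.97 ± 0.15, limma adjusted p = 1.72e-05). The chromatin organizer Satb1 rose by 1.64 on the log2 scale, the ETS factor Erg by 1.52 and the CBP/p300 partner Cited2 by 1.28. Those that fell were Ikzf1 (-0.52) and Bmi1 (-0.42), named after their values were seen. Myb (0.17) and Myc (-0.09) did not pass the test.

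Genes reported elsewhere as targets of the members changed in both directions, with 11 of 22 that rose, 5 that fell and a median of 0.39. Flt3, a cytokine receptor of multipotent and lymphoid-primed progenitors, went from 290 and 367 to 1757 and 1901 (2.44 ± 0.14, limma adjusted p = 3.36e-06), and the platelet chemokine Pf4 rose by 1.85. Klf1, the erythroid Krüppel-like factor, went from 1874 and 1974 to 318 and 330 (-2.52 ± 0.20, limma adjusted p = 2.02e-05), and the pseudokinase Trib2 fell by 1.90 on the log2 scale. Some of these genes stand on more than 1 list.

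Markers of blood cell types moved as well. The Lin- step of the sort is meant to remove mature B, T and NK cells, granulocytes, monocytes and late erythroid cells. The lists named for these lineages are not limited to genes of mature cells. Among their genes, Mpo read 8299 and 8137 and Klf1 1874 and 1974 in HSC Zfx-flox. The lists are therefore not a measure of cells that the gate should lack. Surface markers of long-term stem cells had 6 of 9 that rose (Procr 2.47, Cd34 1.62, Tek 1.49, Cd48 1.01). The 6 include Cd34 and Cd48, which are classically low on the most primitive cells, so the count does not measure such cells. Slamf1 (0.36, limma adjusted p = 0.159) and Cd27 (0.59, limma adjusted p = 0.193) did not pass the test. All 6 tested lymphoid-primed markers rose (Dntt 2.63, Ccr9 2.46), and the summed signal of the list went from 2056 and 2229 to 8727 and 9560. All 8 tested erythroid markers fell (Ermap -3.51, Sphk1 -3.33, Rhd -2.84), and their list's sum went from 28385 and 28886 to 8663 and 8875; of its 9 genes none lay under the pseudocount. Megakaryocyte markers had 5 of 8 that rose (Itgb3 2.66, Gp9 2.35), with sums of 1299 to 1396 before and 4455 to 4466 after deletion. Granulocyte and monocyte markers had 3 that rose and 1 that fell of 9, with sums of 18006 to 18119 and 21933 to 22443. For mast cells and basophils, among which Gata2 is expressed, 3 of 7 rose (Cpa3 1.20, Fcer1a 1.18), with sums of 2827 to 2886 and 4920 to 5089. B, T and NK markers had 2 of 4 that rose and 4 of 9 under the pseudocount, with sums of 1354 to 1426 and 3212 to 3371. Most of that sum is Nkg7, with 1130 and 1122 before and 2775 and 2993 after deletion. Hemato-endothelial markers had 5 of 7 that rose (Cd34, Tek, Emcn 1.17 and Itga2b 0.95 among them), but 4 of the list's 14 genes, Cdh5 and Pecam1 included, were under the pseudocount, and the leukocyte gene Ptprc, named after its value was seen, rose by 0.93. On lists meant for cells that are not of the blood, 3 of 6 endoderm genes and 2 of 5 fibroblast and stroma genes rose, with sums of 647 to 677 against 1202 to 1358 and of 5092 to 5412 against 6359 to 6908. The 2 are Thy1 and Vim, and most of the sum is Vim, with 5153 and 4832, then 6544 and 6040. The other tested genes of that list, Col1a2 among them, did not pass the test, so the sum is no measure of stromal cells. In Zfx-flox, Itgb3 (9.57 and 24.7) and Gp9 (11.9 and 21.4) were under the HSC filter signal of about 25.4. So were Ccr9 (13.2 and 14.3) and Emcn (14.3 and 15.4). These genes were tested only through the Zfx-cko arrays, so their rise is a description only. The part of these shifts in the changes of the 9 genes was not tested.

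**Figure D4:**
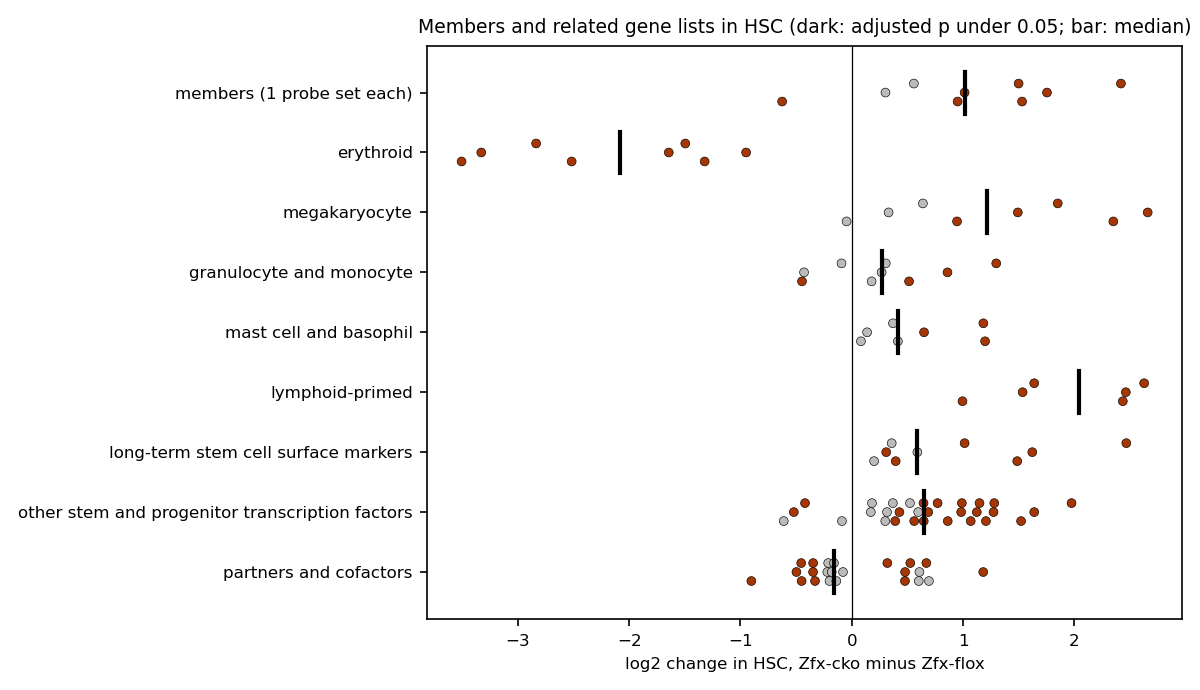
Log2 change between Zfx-cko and Zfx-flox HSC of the 9 genes and of each tested gene on 8 lists of related genes and markers; dark red points passed the test, grey ones did not, and bars are medians. Other stem and progenitor transcription factors have a median of 0.65 and lymphoid-primed markers of 2.04, while erythroid markers have one of -2.08 and partners and cofactors one of -0.16.

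In ESC, 1939 of 12676 genes tested (15.3%) rose and 1817 (14.3%) fell. Of 18 partners and cofactors 4 rose and 1 fell, with the E protein Tcf12 changed most, from 644 and 546 to 1130 and 1408 (1.07 ± 0.11, limma adjusted p = 2.39e-04). Meis2, a close relative of Meis1, rose from 409 and 404 to 768 and 729 (0.86 ± 0.23, limma adjusted p = 0.0240), and Tef fell by 0.37, the only calls among 8 paralogs tested. Of 24 other stem and progenitor factors 7 rose, led by the zinc finger protein Zfp521 (1.87), Ikzf2 (1.35) and Cited2 (1.09), and 2 fell, Myb (-0.90) and Kmt2a (-0.28), the latter named after its value was seen. Of 16 reported targets 3 rose (Cdkn1a 0.89, Id2 0.80, Trib2 0.74). Trib2 thus rose in ESC and fell in HSC.

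Few blood markers were bright enough to test in ESC. Surface markers of long-term stem cells had 2 of 6 that rose (Procr 1.62, Tek 1.29) and 1 that fell (Robo4 -0.87). Of hemato-endothelial genes 2 of 8 rose (Tek 1.29, Kdr 0.77) and 1 fell (Eng -0.69), with Ptprc and Cd34 below the filter, and none of the 7 mast cell and basophil markers passed the filter. Of B, T and NK markers 2 passed it, Cd8a (0.04) and Pax5 (-0.93), and neither passed the test. Lymphoid-primed, megakaryocyte, erythroid and granulocyte and monocyte lists each had 1 gene that rose (Satb1, Itgb3, Sphk1 and Lyz2), of 3, 5, 6 and 5 tested, and the erythroid gene Car2 fell by 0.61 on the log2 scale. Lyz2, with 22.5 and 41.0 in Zfx-flox, was tested only through the Zfx-null arrays. Markers of other cells did move in ESC. Pluripotency markers had 5 of 9 that fell (Lefty2 -1.67, Nr0b1 -1.37, Tdgf1 -1.19, Pou5f1 -1.01), with sums of 22460 and 22560 with Zfx and of 13268 and 13503 without it. Of the fibroblast and stroma list 6 of 9 rose (Lox 1.43, Col3a1 1.23, Col1a1 1.22, Postn 1.07), with sums of 18352 and 18756 against 31959 and 35067, and of the endoderm list 2 of 7 (Dab2 1.46, Col4a1 0.96). Their part in the changes of Runx1 and Meis1 in ESC was not tested. In HSC 7 of the 9 pluripotency genes were under the pseudocount, and the 1 tested, Esrrb (-0.31), did not pass the test.

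For each member with a call in HSC, the genes with the most similar pattern over the 8 arrays were sought among 12533 genes, by the root mean square distance between log2 values centred on their mean. Meis1 was nearest to Flt3 (distance 0.18), Fxyd5 (0.18) and Adgrl4 (0.25). Runx1 was nearest to Mdfic (0.092), Pcdhb16 (0.17) and Dyrk2 (0.19), and Gata2 to Acap1 (0.068), Gimap5 (0.069) and Cdk19 (0.10). Hlf had Igkv15-103 (0.10), Il16 (0.11) and Epsti1 (0.17) as its neighbors, Gfi1 had Alox5ap (0.20), Rassf5 (0.21) and Ifi44l (0.21), and Mecom had Ctla2b (0.29), Itih5 (0.39) and Ikzf2 (0.43). Tal1 had 1 gene near it, Psmb9 (0.20), and then AI662270 (0.40) and Fermt3 (0.45), and none of those 3 had a call in HSC. The distance is dominated by the step between ESC and HSC, which the amplification rounds share.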

How the data were processed

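RNA of 8 samples was measured, 1 array each and 2 arrays per group. GCOS 1.4 turned the scans into the deposited values, which are linear intensities of probe sets, per the submitters' processing notes. How the software summarised the probes is not stated there. Each array had a mean of 250 after its highest and lowest 2% were trimmed, so the deposited scaling was kept. The pseudocount of 14.2 is the 25th percentile of all values, and it understates the change of dim genes. The 64 control probe sets were left out. A probe set was tested where its mean log2 value over the 4 arrays of a cell type reached the 40th percentile, a signal of about 39.1 in ESC and 25.4 in HSC; 22829 were tested in both.

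By the platform annotation, 34945 probe sets had 1 symbol, 932 several and 9160 none, and no probe set with several named a member. The 4 group means were estimated from all arrays in a single limma model (version 3.58.1, R 4.3.3), moderated by eBayes along a mean-variance trend and leaving 4 residual degrees of freedom, with contrasts of deleted minus floxed cells in HSC and ESC and of the HSC minus the ESC effect, and Benjamini-Hochberg adjustment over all tested probe sets at 0.05. The joint fit shares 1 estimate of the spread over both cell types. The fit was checked on simulated data.

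Every member probe set is described in HSC, and in ESC every tested one and some of those below the filter. From each list, at most 4 called genes are named, by size of change, and at most 2 others, by mean signal, with exceptions stated. The members, lists and rules were chosen with earlier results of these data known. Alternatives changed the pseudocount, scaling, filter, fit, trend, replicate block and probe set choice, and left out each array. Same-numbered arrays do not pair by the labels, and the deviations from the group means correlated at 0.32 in ESC and 0.07 in HSC between same-numbered arrays. The number of arrays limits the precision.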

Additional observations from a re-analysis of the deposited data

Results flagged for a closer look

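Of the tested probe sets of the 9 genes, 6 had a change after loss of Zfx that differed between HSC and ESC by limma's test of the difference itself. The HSC minus ESC difference in log2 change was 2.12 for Meis1 1443260_at, 1.56 for Hlf 1434735_at, 1.23 for Meis1 1459423_at, 1.11 for Gata2 1450333_a_at, 0.95 for Meis1 1450992_a_at and 0.80 for Runx1 1440878_at. All 6 rose in HSC. Runx1 1440878_at and Meis1 1450992_a_at also rose in ESC, by less. Runx1 1440878_at passed the ESC filter only through its Zfx-null arrays. Cell type, amplification rounds and the way Zfx was deleted differ together between these comparisons and cannot be told apart. Groups of 2 arrays allow no test for a single array that stands apart.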

How the results depend on the processing

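The 11 probe sets that rose in HSC kept their call under every alternative in which they were tested; the count of probe sets that rose ranged from 10 (60th percentile filter) to 14 (fit per cell type) and from 11 to 13 with an array left out. The count that fell in HSC (1) was 0 with no pseudocount, 2 under quantile normalization within cell types, quantile normalization over all arrays and median centring, and 0 to 1 with an array left out. In ESC the count that rose (4) was 2 at the 60th percentile filter and 2 in the fit per cell type, and 3 to 4 with an array left out, and the count that fell (0) was 1 with no filter. The count of differences between cell types (6) was 2 at the 60th percentile filter and 4 to 6 with an array left out; a fit per cell type gives no such difference. The lower counts at the 60th percentile filter, in ESC and for the differences, came from probe sets that were no longer tested there. The call of a difference for Meis1 1450992_a_at was also lost with a pseudocount at the 10th percentile (limma adjusted p = 0.0606), with none (0.0872) and with no variance trend (0.0588). Reversals concerned changes that had not passed the test. Prdm16 1429309_at in HSC was -0.0303 under quantile normalization both within cell types and over all arrays, -0.0126 under median centring and -0.0658 to 0.24 with an array left out, and the Runx1 1422864_at difference was -0.0448 under quantile normalization over all arrays. With an array left out, ESC changes ranged from -0.47 to 0.21 for Meis1 1459423_at, -0.25 to 0.19 for Hlf 1434735_at, -0.60 to 0.0801 for Gata2 1428816_a_at, -0.33 to 0.20 for Runx1 1452531_at, -0.36 to 0.00834 for Runx1 1452530_a_at and -0.57 to 0.18 for Lmo2. Apart from leaving out arrays, the cause was not tested. Over all probe sets, those lower in ESC fell from 3434 to 2003 without Zfx-flox replicate 1 and 2135 without Zfx-flox replicate 2. A lone array left in a group is assumed to vary like the others. The replicate block within each cell type gave 13 higher and 1 lower in HSC, 5 higher and 0 lower in ESC and 7 differences. By the labels the numbers do not pair the arrays, though in ESC the deviations of same-numbered arrays correlated at 0.32. By gene rather than probe set, 6 members rose and 1 fell in HSC and 1 rose in ESC, with 1 probe set or with the mean of all, and the differences numbered 3 among the probe set calls and 2 in each fit by gene. Averaging all probe sets lowered the HSC change of Mecom from 1.75 to 0.72 and of Runx1 from 1.50 to 0.97, and the ESC change of Runx1 from 1.29 to 0.67. Signals near the pseudocount limit what can be said of Tal1, Gfi1, Prdm16 and Mecom in ESC.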
